A study of Mus musculus with 8 samples.

Results

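The genes described here were 8 Schwann cell and glial genes, Mbp, S100b, Cdh19, Sox2, Erbb3, Foxd3, Gfra3 and Ncam1, found by their symbols among the 53801 genes of the deposited count table. The RNA came from the stroma of MO5 tumors, a melanoma model started by injecting an ovalbumin-expressing B16 line. The tumors grew under the skin of young adult C57Bl/6 mice carrying the ADAM12-GFP transgene, a bacterial artificial chromosome that places Cre and GFP under Adam12 control. GFP therefore reports the transgene, and all 8 libraries came from this genotype. Cells negative for CD45 and CD31 and positive for PDPN and PDGFRα were sorted by GFP, giving 4 libraries of ADAM12+ (GFP+) and 4 of ADAM12- (GFP-) cells. The study's methods state that n counts mice unless otherwise specified, so the libraries of a group are read as separate mice. The labels do not say so, nor which GFP+ and GFP- libraries shared a tumor.

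Schwann cells are the glia of peripheral nerves and descend from the neural crest, as do melanocytes, the cells from which melanoma arises. Myelinating Schwann cells wrap single axons in myelin, whereas non-myelinating Schwann cells ensheath bundles of small axons and become repair cells after nerve injury. Because of the common origin, several genes used as Schwann cell markers are also active in melanocytes and melanoma cells. The 8 genes were therefore divided by textbook knowledge into 5 shared with pigment cells (Erbb3, Cdh19, S100b, Sox2 and Foxd3) and 3 of glia or nerve (Mbp, Ncam1 and Gfra3). No library of B16 cells alone was analysed here, so the division was not checked against such cells. It was made with earlier results of these data known.

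Library totals ran from 883144 counts in GFP- replicate 3 to 31666734 in GFP+ replicate 4. The sorted phenotype was visible in both groups, since the 6 fibroblast genes Pdgfra, Pdpn, Col1a1, Col1a2, Dcn and Lum together gave 1.63 to 2.87% of counts in GFP- libraries and 3.01 to 3.13% in GFP+ libraries. Adam12 itself stood at 1362 ± 357 normalised counts in GFP- cells and at 2302 ± 484 in GFP+ cells (SD, n = 4 each), raw counts having been scaled by DESeq2 size factors. This was a log2 fold change of 0.75 ± 0.24 (SE, DESeq2 adjusted p = 0.0266), and 11 of 16 other settings also called it, edgeR not among them (adjusted p = 0.0643). GFP- libraries therefore held Adam12 RNA, so ADAM12- names the reporter gate and not an absence of the transcript. Pigment cell transcripts were present in every library. The 13 melanocyte genes examined gave 0.274 to 0.836% of counts in GFP- and 0.0379 to 0.116% in GFP+, and only Mc1r among them had no count.

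Of the 8 genes, 3 were lower in GFP+ cells and none was higher (DESeq2, adjusted p under 0.05). All 3 that fell, Erbb3, Cdh19 and S100b, belong to the genes shared with pigment cells. Neither Mbp nor Ncam1, the measured genes of glia or nerve, passed the test. The remaining 3 genes, Sox2, Foxd3 and Gfra3, had too few counts for an adjusted p. Over the whole table, 727 of 15283 genes tested were lower (4.76%) and 712 were higher (4.66%), 9.42% in either direction. By edgeR's quasi-likelihood test 2 of the 8 genes were lower and 0 higher, beside 2.28% and 2.83% of the genes it tested. At an unadjusted p under 0.05 by DESeq2, 3 were lower and 0 higher. In these bulk libraries, fewer cells of a type and less RNA of a gene per cell cannot be told apart.

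**Figure D1:**
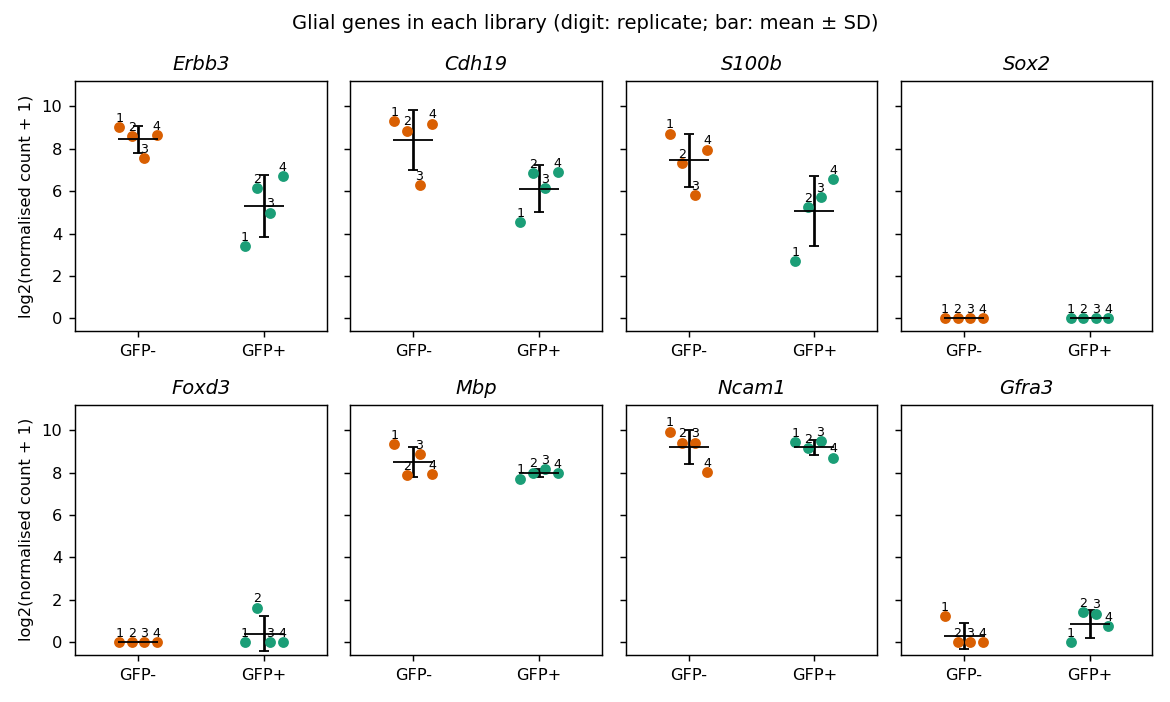
Normalised counts of the 8 genes, as log2(normalised count + 1), in the 4 GFP- libraries (orange) and the 4 GFP+ libraries (green), with the replicate number above each point and bars for the mean ± SD of the log2 values. Erbb3 is the gene whose groups do not overlap, S100b and Cdh19 overlap through GFP- replicate 3, and Sox2, Foxd3 and Gfra3 lie at or near 0.

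Erbb3 encodes the neuregulin receptor through which axons direct the survival, migration and myelination of Schwann cells. It lies on the minus strand of chr10:128567523-128589652 (GRCm38). GFP- libraries 1 to 4 held 522, 384, 187 and 401 normalised counts, and GFP+ libraries 1 to 4 held 9.72, 69.9, 30.7 and 104. Every GFP- library was above every GFP+ library. GFP+ replicate 1 was the lowest of all, with 7 raw counts, and the lowest GFP- value rested on 17 raw counts in the shallowest library. The level was 6.94-fold lower in GFP+ (log2 fold change -2.79 ± 0.56, SE, DESeq2 adjusted p = 3.51e-05). The call held in 16 of 16 other settings, with edgeR's quasi-likelihood test giving an adjusted p of 0.0135. Erbb3 was the only 1 of the 5 testable genes whose groups did not overlap, against 5.95% of all tested genes that were lower without overlap and 6.37% that were higher.

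Cdh19 encodes cadherin-19, a cell adhesion molecule of Schwann cell precursors, on the minus strand of chr1:110888326-110977584. GFP- libraries 1 to 4 held 634, 464, 76.9 and 585 normalised counts, and GFP+ libraries 1 to 4 held 22.2, 115, 70.7 and 118. GFP- replicate 3, with 7 raw counts, fell among the GFP+ libraries, while the other GFP- libraries stood well above them. Cdh19 was 5.43-fold lower in GFP+ (log2 fold change -2.44 ± 0.57, SE, DESeq2 adjusted p = 0.00062), and all 16 other settings called it (edgeR adjusted p = 0.0253). Leaving out single libraries moved the log2 fold change between -2.77 and -2.14.

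S100b encodes the calcium-binding protein by which Schwann cells are commonly stained in tissue, a stain that melanocytes also take. Its gene lies on the plus strand of chr10:76253853-76261159. GFP- libraries 1 to 4 held 421, 161, 54.9 and 248 normalised counts, and GFP+ libraries 1 to 4 held 5.55, 36.8, 51.5 and 94.6. The groups overlapped, again through GFP- replicate 3, where S100b had 5 raw counts with an exact Poisson 95% interval of 1.62 to 11.7 for counting error only. S100b was 4.72-fold lower in GFP+ (log2 fold change -2.24 ± 0.69, SE, DESeq2 adjusted p = 0.0178). This call was the least stable of the 3, because edgeR gave an adjusted p of 0.0931. DESeq2 no longer called S100b without GFP- replicate 1 (adjusted p = 0.127), GFP- replicate 4 (0.0750) or GFP+ replicate 2 (0.0585).

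The 250 bases before the RefSeq start of S100b are shown because, of the 3 shared genes that fell, S100b is the one found in the promoter table used here. They lie at chr10:76253586-76253835 on the plus strand of GRCm38.p6 (RefSeq). Capitals mark the single match to the core sequence bound by SOX factors such as Sox10, 77 bases before the RefSeq start. That start lies upstream of the GENCODE start printed above for the gene, so distances to the latter are longer.

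S100b: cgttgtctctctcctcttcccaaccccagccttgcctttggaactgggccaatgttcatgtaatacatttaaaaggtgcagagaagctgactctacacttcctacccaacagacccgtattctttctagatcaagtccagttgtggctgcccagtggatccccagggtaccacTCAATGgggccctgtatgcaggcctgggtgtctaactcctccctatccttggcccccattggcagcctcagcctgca

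The core was searched on both strands as ACAAAG. The spelling TCAAAG was also searched, and so were the letters ACAATG, as well as the TCAATG found here. At least 1 of them stood in 39.4% of 32851 promoter windows of this length, so a match is common. The E-box CATGTG, bound by factors that include the pigment cell regulator Mitf, was not found in this window and stood in 12.3% of the windows. Its relative CACGTG was not found either and stood in 6.02%. The matches describe letters only, and no binding was measured.

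Sox2 and Foxd3, the other shared genes, encode transcription factors of neural crest and Schwann cell precursors that also occur in melanoma. Sox2 had 0 counts in all 8 libraries, 120864303 counts in total, which allows a level of up to 0.0248 CPM (counts scaled to the library total) over the series, 0.0741 CPM in GFP- and 0.0373 CPM in GFP+. Foxd3 had 0 counts in GFP-, and its 5 counts in GFP+ (0.0622 CPM) all came from replicate 2. That level is under the limit for GFP- set by a count of 0, so a difference between the groups was not detectable at this depth.

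Mbp encodes myelin basic protein, a major structural protein of compact myelin. The same locus also gives Golli transcripts outside myelinating cells, and gene counts do not separate these forms. GFP- libraries 1 to 4 held 640, 233, 461 and 244 normalised counts, and GFP+ libraries 1 to 4 held 208, 255, 288 and 251. GFP- replicates 1 and 3 were above all GFP+ libraries and GFP- replicates 2 and 4 were among them. The log2 fold change was -0.64 ± 0.35 (SE, 95% interval -1.33 to 0.05, DESeq2 adjusted p = 0.291), and none of 16 other settings called it. Mbp lies at chr18:82475146-82585637 on the plus strand.

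Ncam1 encodes the neural cell adhesion molecule carried by non-myelinating Schwann cells, neurons and other cells. It is on the minus strand at chr9:49502136-49798925, and 4.81% of its exon bases face Gm11149 on the opposite strand. GFP- libraries 1 to 4 held 975.4, 682, 681 and 261 normalised counts, and GFP+ libraries 1 to 4 held 694, 566, 708 and 417. All GFP+ values lay between the lowest and the highest GFP- value. The log2 fold change was -0.12 ± 0.36 (SE, 95% interval -0.83 to 0.59, DESeq2 adjusted p = 0.911). Its sign turned in 3 of 16 other settings and no setting called it.

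Gfra3 encodes the receptor for artemin, a ligand of the GDNF family, and marks Schwann cell precursors and some sensory neurons. It had 1 count in GFP- (0.0247 CPM) and 8 counts spread over 3 GFP+ libraries (0.0995 CPM). At such counts no difference between the groups could be read.

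Per kilobase of exon, mean normalised counts in GFP- cells ran from S100b (149) through Cdh19 (103), Ncam1 (75.0) and Erbb3 (62.1) to Mbp (46.6). In GFP+ cells the order was Ncam1 (68.8), S100b (31.7), Mbp (29.6), Cdh19 (19.0) and Erbb3 (8.91). Ncam1 thus stood first in GFP+ and in the middle of the order in GFP-. Differences between neighbours in either order were not tested.

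The melanocyte genes fell with the shared genes. Of the 12 melanocyte genes tested, 12 were lower in GFP+, among them Pmel (-3.41 ± 0.42), Trpm1, Slc24a5 and Slc45a2, with a median log2 fold change of -3.07 beside -0.0082 over all genes tested. The other settings called 9 to 12 of them (11 by edgeR, 9 without GFP- replicate 4), and Trpm1 was called in 10 of 16. Their summed level was 26589 to 77037 normalised counts in GFP- and 4616 to 12331 in GFP+. To set the glial genes against this change without scaling between libraries, the counts of each gene were divided by the melanocyte counts of the same library. An exact permutation test, two-sided, set the observed difference of each log2 ratio against all 70 splits into 4 and 4, where p cannot go below 0.0286. The p-values were adjusted over 5 genes.

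Erbb3 had 7.49 ± 1.92 counts per 1000 melanocyte counts in GFP- and 6.47 ± 3.08 in GFP+ (SD, n = 4 each, exact p = 0.657, adjusted p = 0.686). Cdh19 had 7.995 ± 3.83 and 10.97 ± 4.76 (exact p = 0.486, adjusted p = 0.686). S100b had 4.13 ± 2.58 and 6.11 ± 4.15 (exact p = 0.686, adjusted p = 0.686). The 2 groups overlapped for each of these 3 genes, and no difference beyond the spread between libraries was found, which does not show that the ratios were equal.

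Mbp had 9.34 ± 6.58 counts per 1000 melanocyte counts in GFP- and 39.7 ± 17.4 in GFP+ (SD, n = 4 each, exact p = 0.0286, adjusted p = 0.0714). Ncam1 had 15.4 ± 9.29 and 101 ± 58.3 (exact p = 0.0286, adjusted p = 0.0714). For both genes every GFP+ library was above every GFP- library, by 4.88-fold for Mbp and 7.02-fold for Ncam1 in geometric mean. The melanocyte sum alone was 7.06-fold higher in GFP- in geometric mean, so a gene at the same normalised level in both groups would show that fold. The ratios of Mbp and Ncam1 are therefore no rise of these genes, and Pdgfra, which was called higher, gave 17.7-fold. The unadjusted p-values were the smallest that the design allows, and neither passed 0.05 after adjustment. The melanocyte sums did not overlap between the groups, so these p-values carry that difference too and do not test Mbp or Ncam1 alone. Summed by class, the shared genes gave 19.6 ± 7.58 and 23.6 ± 10.7 counts per 1000, and the genes of glia or nerve 24.7 ± 15.6 and 141 ± 74.8, in GFP- and GFP+. What part the melanocyte transcripts had in the fall of the shared genes was not tested.

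**Figure D2:**
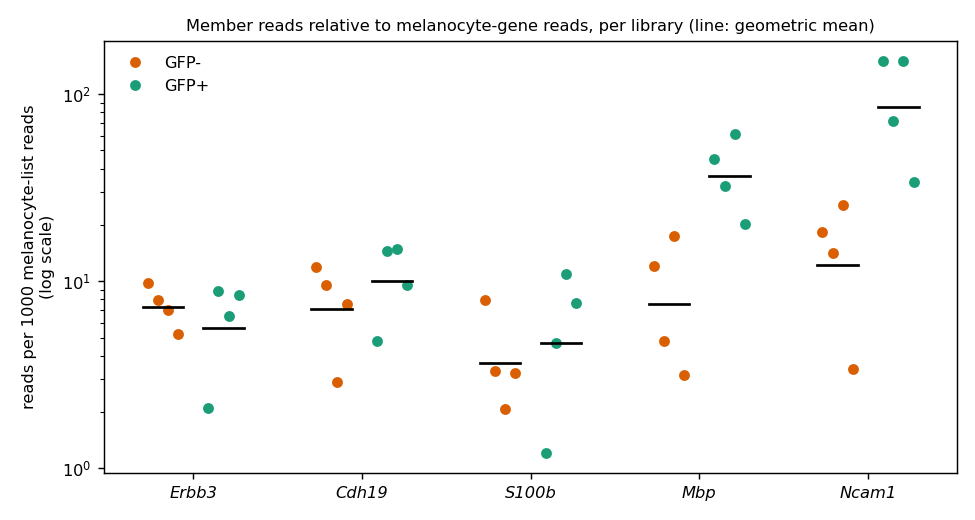
Counts of 5 genes per 1000 counts of the melanocyte genes in the same library, on a log axis, for the 4 GFP- libraries (orange) and the 4 GFP+ libraries (green), with lines at the geometric means. The groups overlap for Erbb3, Cdh19 and S100b and are apart for Mbp and Ncam1.

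Sox10, the factor that directs both the glial and the pigment cell fate, had 1248 ± 556 normalised counts in GFP- cells against 103 ± 77.8 in GFP+ cells (SD, n = 4 each). By DESeq2 it fell, with a log2 fold change of -3.59 ± 0.49 (SE, adjusted p = 1.10e-10). Per 1000 melanocyte counts it had 24.0 ± 3.32 in GFP- and 12.5 ± 4.09 in GFP+. Of 11 neural crest regulators, 10 were tested, 5 were lower in GFP+ (Sox10, Tfap2a, Pax3, Sox6 and Ets1) and Snai2 was higher (1.65 ± 0.37). Of these 5, edgeR called 3, without Tfap2a (adjusted p = 0.0577) and Ets1 (0.0586).

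The counts for myelinating Schwann cell genes cover only part of that list. Of the 16 genes reported here, 8 were tested, and they had a median log2 fold change of 0.30. Egr2, the regulator of myelination that also responds to growth factors in other cells, was higher in GFP+ (1.02 ± 0.27, SE, DESeq2 adjusted p = 0.00337) and called in all 16 other settings. Prx, which encodes periaxin of the myelin sheath, had a log2 fold change of -1.85 ± 0.92 (adjusted p = 0.220), and Drp2, which encodes its partner, 1.85 ± 0.77 (adjusted p = 0.120). Without GFP+ replicate 1 Drp2 was called higher (2.25, adjusted p = 0.00659) and the list count rose from 1 to 2. Dhh, a hedgehog ligand secreted by Schwann cells, had 0 counts in GFP- and 29 in GFP+, from replicates 3 and 4. The peripheral myelin genes Mag, Fa2h and Gjb1 each had under 10 counts in all 8 libraries together, and Gjb1 had 4 counts in GFP- and 0 in GFP+.

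More genes of the non-myelinating and repair Schwann cell list rose than fell. Of 12 genes, 9 were tested, 4 were higher and 1 was lower, with a median log2 fold change of 1.38. Ngfr, the low-affinity nerve growth factor receptor, stood at 851 ± 432 normalised counts in GFP- cells and 4265 ± 2088 in GFP+ (log2 fold change 2.34 ± 0.45, SE, DESeq2 adjusted p = 1.50e-05). Scn7a, a sodium channel-like protein, averaged 1215 ± 421 and 3920 ± 369 (1.70 ± 0.25, adjusted p = 2.68e-09). Col28a1, a collagen of peripheral nerve, rose from 40.0 ± 36.2 to 378 ± 152 (3.48 ± 0.60, adjusted p = 7.26e-07). Scn7a, Ngfr and Col28a1 were called in all 16 other settings, whereas the adhesion molecule Cadm2 (1.73 ± 0.61, adjusted p = 0.0492) lost its call in 9. Gfap, the intermediate filament of non-myelinating Schwann cells, was lower (-4.05 ± 1.12, adjusted p = 0.00582) and lost its call in 3. Ngfr, Scn7a and Col28a1 are also known from fibroblasts and other mesenchymal cells. Of 6 fibroblast genes, 4 were higher in GFP+ (Pdgfra, Pdpn, Dcn and Lum).

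**Figure D3:**
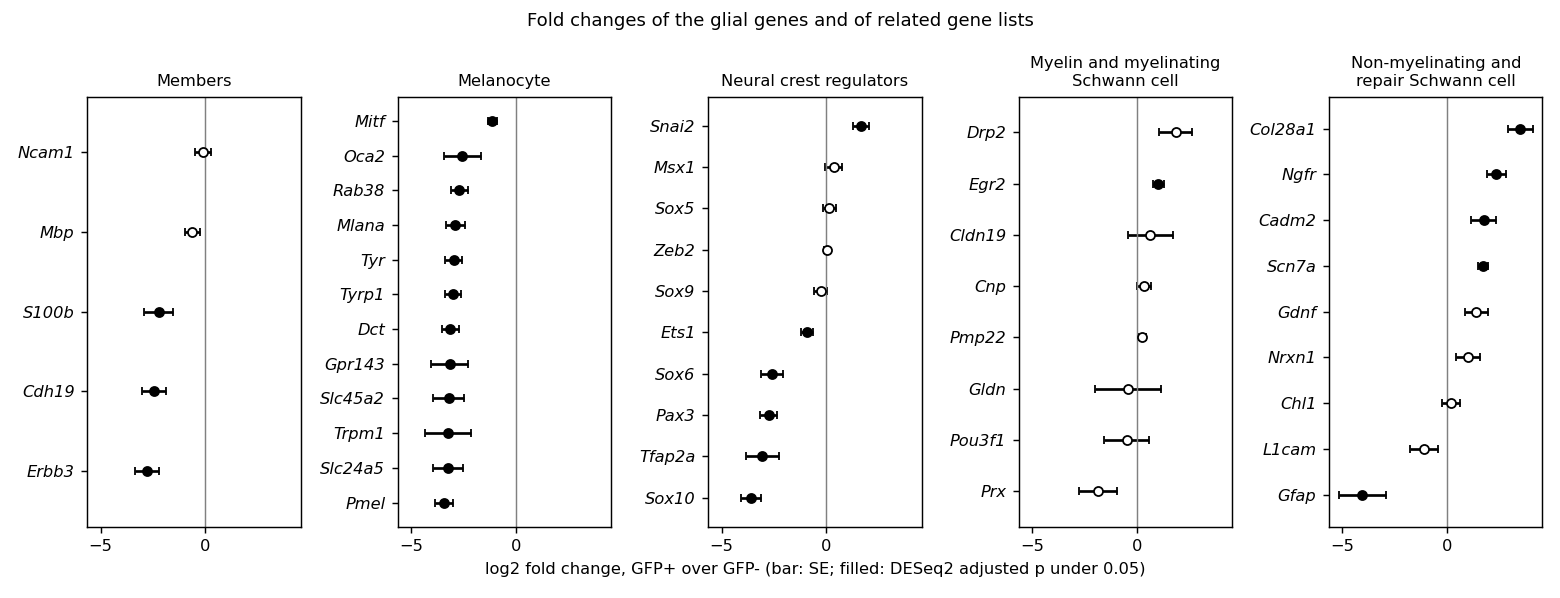
Log2 fold changes of GFP+ over GFP- with their SE for the 5 testable glial genes and for 4 related gene lists, with filled points for a DESeq2 adjusted p under 0.05. The melanocyte genes lie left of 0 throughout, with a median of -3.07, whereas the non-myelinating and repair genes have a median of 1.38.

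Most partners of the glial genes did not pass the test. In the neuregulin and ErbB list, 6 of 7 genes were tested and Egfr alone passed, higher in GFP+ (1.10 ± 0.23, SE, DESeq2 adjusted p = 6.54e-05). Erbb2, the co-receptor of Erbb3, had 229 ± 44.0 normalised counts in GFP- and 244 ± 42.4 in GFP+ (0.10 ± 0.26, adjusted p = 0.894). Nrg1, which encodes the axonal ligand, had 59.0 ± 27.0 and 96.3 ± 20.6 (0.57 ± 0.40, adjusted p = 0.440). In the GDNF family, 5 of 8 genes were tested and none passed by DESeq2 or edgeR (1 at an unadjusted p under 0.05, Gdnf), with Ret, the signalling receptor, at 46.4 ± 26.0 and 39.8 ± 35.9. Pspn, the ligand persephin, had 0 counts in GFP- and 33 in GFP+, most of them in replicate 1.

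Among 13 genes of neural adhesion and polysialylation, which bear on Ncam1 and Cdh19, 2 were lower and 3 higher. Cadm4, a Schwann cell adhesion molecule at the axon contact, was lower (-3.22 ± 0.83, SE, edgeR adjusted p = 0.0705), as was Cadm1 (-2.18 ± 0.50). Nfasc, which organises the node of Ranvier, was higher (2.57 ± 0.43), as were Cdh11 (1.74 ± 0.26) and Cadm2. The polysialyltransferase St8sia2, which modifies NCAM1, had 9.80 ± 6.81 and 10.1 ± 8.45 normalised counts in GFP- and GFP+. Of the 13 other S100 genes, 8 were tested, none was lower by DESeq2, at an unadjusted p under 0.05 or by edgeR, and S100a6 (0.78 ± 0.24) and S100a11 (0.71 ± 0.23, edgeR adjusted p = 0.0631) were higher. S100a6 was called in 13 of 16 other settings and S100a11 in 11, and 0 genes of the list were called higher when GFP- replicate 4 was left out, and likewise for replicates 1 and 3 of GFP+. S100a8 had 0 counts in GFP- and 54 in GFP+, all from replicate 4. By these counts the fall of S100b was not matched by another tested member of its family.

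Other cells of nerve were also examined. Of 6 perineurial genes, 4 were tested and none passed by DESeq2 or edgeR (1 lower at an unadjusted p under 0.05, Slc2a1), with a summed level of 810 to 2009 normalised counts in GFP- and 664 to 1016 in GFP+. The perineurial gene Lypd2 had 0 counts in GFP- and 2 in GFP+. Of 10 genes of central glia and neurons, 4 were tested, Olig2 had 0 counts in all 8 libraries, and Prph, the intermediate filament of peripheral neurons, was lower (-3.13 ± 0.95, SE, DESeq2 adjusted p = 0.0153), a call lost in 5 of 16 other settings. Of 12 leukocyte genes, 9 were tested and 0 passed by DESeq2, at an unadjusted p under 0.05 or by edgeR. Of 8 endothelial genes, 6 were tested and Vwf was lower (-3.30 ± 0.66). At an unadjusted p under 0.05, 2 were lower (Vwf and Cldn5) and 1 higher (Kdr), and 1 gene was called higher by limma voom and when GFP- replicate 3 or GFP+ replicate 4 was left out. In GFP- replicate 3, where Cdh19 and S100b fell among the GFP+ values, the leukocyte sum was the highest of all libraries (4779 normalised counts) and the melanocyte sum the lowest of the GFP- libraries (26589). The part of these cells in the results was not tested.

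GFP- replicate 1 had the highest GFP- level of all 5 testable glial genes, whereas GFP- replicate 4 had the highest level of all 12 measured melanocyte genes. Likeness of pattern was measured as the root mean square difference of log2(normalised count + 1) after centring each gene on its mean over the 8 libraries. By this measure Erbb3 was closer to Sox10 (0.552) than to Cdh19 (0.715) or S100b (0.699), S100b and Cdh19 were 0.569 apart, and Mbp and Ncam1 0.521. Erbb3 and Ncam1 were 2.00 apart, the farthest pair among the 5 genes. The most similar of 12634 other genes were Gpr137b, Filip1 and Rapgef4 for Erbb3 (0.289 to 0.354), Cystm1, Impa2 and Insc for Cdh19 (0.365 to 0.419) and Slc27a6, Cystm1 and Adamts18 for S100b (0.297 to 0.399). They were Cnot10, Slc41a3 and Nme7 for Mbp (0.140 to 0.191) and Dhrs9, Osbpl5 and Fam120c for Ncam1 (0.205 to 0.219). These distances are descriptions over 8 libraries and carry no test.

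**Figure D4:**
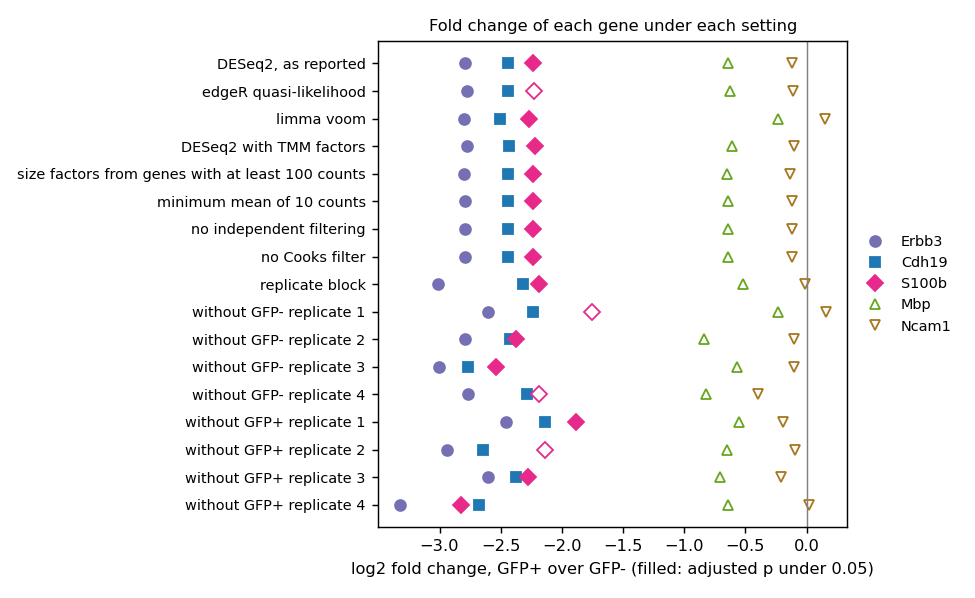
Log2 fold change of GFP+ over GFP- for each of the 5 testable glial genes in the reported DESeq2 fit and in 16 other settings, with filled symbols for an adjusted p under 0.05. Erbb3 and Cdh19 are filled in every setting, S100b is open in 4, and Mbp and Ncam1 are open in all.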

How the data were processed

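Cells had been sorted by flow cytometry, and libraries were made from total RNA with a stranded low-input kit (SMARTer Pico). According to the methods and the submitters' processing notes, the authors trimmed adapters with cutadapt 3.4, mapped reads to GRCm38 with STAR 2.7.3a and counted them per Ensembl 92 gene, by strand, with featureCounts 2.0.1. The authors deposited raw counts per gene and library, from which all values here start. The deposited table also held a normalised score per library, which in every case lay within 1 of the raw count divided by the size factor and rounded, and the authors' own fold changes and p-values, which were not used. Per-sample columns left unused were 0. Reads shared between close paralogs can be lost or split by such counting.

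Genes with a count (29043 of 53801) were fitted with DESeq2 1.42.0 in R 4.3.3 with the group as the only term, a two-sided Wald test, independent filtering, the Cook's distance filter and Benjamini-Hochberg adjustment. A gene was called where its adjusted p was under 0.05. The other settings were edgeR 4.0.16 (quasi-likelihood, TMM), limma 3.58.1 voom, other scalings and filters, the replicate number as a block, and each library left out in turn. Library totals of 883144 to 31666734 counts limit the precision, most in GFP- replicate 3. Poisson intervals and limits from a count of 0 cover counting error only, whereas intervals of fold changes come from DESeq2 standard errors, which include the spread between libraries. Gene positions and exon lengths came from GENCODE M21, in which 53620 identifiers were found. The code was tested on simulated data, where the requirement for passing was changed to 4-fold changes only after smaller changes had been recovered less often.

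The 8 genes, the gene lists and their classes were chosen with earlier results of these data known. Genes named were the 8, at most 4 called genes per list by size of change, genes at 0 in a group, Sox10, Adam12 and the 3 most similar genes to each. Erbb2, Nrg1, Ret, St8sia2, Prx, Drp2, Mag, Fa2h, Ets1, Snai2, Scn7a, Gdnf, Slc2a1, Cldn5, Kdr and the fibroblast genes not called were named for their role or to complete a count after their values were seen. The class sums per 1000 melanocyte counts had a planned permutation test, which was run and then left out, because a p for a score over chosen genes is no independent evidence. Tests of the single genes were given in its place, a change made after the values were seen. The SOX motif was widened to 4 spellings, and the window shortened to 250 bases, after a first search with ACAAAG and ACAATG found no match. Some genes of the myelin list are not reported here, so its counts and median do not describe the whole list. Promoter sequences were from RefSeq, where 3 of the 8 genes were found.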

Additional observations from a re-analysis of the deposited data

Results flagged for a closer look

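In 2 of 17 sets of 4 values, 1 library stood apart from the others of its group. Foxd3 had 2.09 normalised counts in GFP+ replicate 2, from 5 raw counts, and 0 in the other GFP+ libraries. Gfra3 had 1.36 normalised counts in GFP- replicate 1, from 1 raw count, and 0 in the other GFP- libraries. The rule used marks about 1 set in 20 by chance, but that rate does not hold for these sets, where any count in a single library is marked when the other 3 are at 0.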

How the results depend on the processing

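Across the 16 other settings, 2 to 3 of the 8 genes were lower in GFP+ and 0 higher, and Erbb3 and Cdh19 were called in each. S100b kept its direction and lost its call in 4 settings. Ncam1 turned positive with limma voom (0.15), without GFP- replicate 1 (0.16) and without GFP+ replicate 4 (0.02), uncalled in each, and ran from -0.40 to 0.16 with libraries left out. Over all genes, edgeR called 327 lower and 405 higher, against 727 and 712, and the cause was not tested. With single libraries left out, 469 (without GFP- replicate 4) to 900 were lower and 460 (without GFP+ replicate 3) to 937 higher, the most without GFP- replicate 3 in both directions. The log2 difference of the class ratios between groups was 0.17 for the shared genes (-0.04 to 0.63 with libraries left out, -0.07 without Cdh19) and 2.62 for the genes of glia or nerve (2.08 to 3.02). Libraries with the same replicate number did not consistently deviate together (correlations 0.084, -0.168, -0.129 and 0.248 for replicates 1 to 4, over 10585 genes). The 0.248 of replicate 4 was the highest of all pairs, and pairs of different numbers ran from -0.160 to 0.180. The numbers were not taken to pair the libraries, and whether replicate 4 was paired was not tested. With the replicate number as a block, 1492 genes were called, against 1439, and 3 of the 8 genes were lower. At this depth Sox2, Foxd3 and Gfra3 could not be compared between the groups, and the limit set by a count of 0 was highest in GFP- replicate 3.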
